A study of Rattus norvegicus with 24 samples.

Results

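The genes described here encode the proteins of the cytosolic ribosome. They were chosen by name, as the rows called Rpl or Rps with a number, together with Rpsa, Rplp0, Rplp1 and Rplp2, whose mean FPKM over all libraries was at least 1. Of 23950 genes in the files, 89 had such a name and 87 met the minimum, 52 of the large subunit (Rpl) and 35 of the small subunit (Rps). FPKM counts sequenced fragments scaled for transcript length and for the size of the library, so levels can be compared between genes. RNA came from the nucleus accumbens (NAc), a reward region of the ventral striatum, of 24 Sprague Dawley rat pups at postnatal day 14, with 4 pups in each of 6 groups. F1 pups were born to F0 dams given saline (SAL) or oxycodone by oral gavage. Postnatal exposure (PNO) dams received 15 mg/kg/day from parturition until weaning. In utero exposure (IUO) dams received 10 mg/kg/day for 5 days, rose by 0.5 mg/kg/day over 10 days to 15 mg/kg/day, and stayed on that dose through mating, gestation and nursing. F2 pups came from F1 females of each exposure that were never dosed themselves and were mated with males outside the experiment, so exposed F2 pups had an exposed grandmother and mother but received no drug. Pups of either sex were taken, the sex of each is not given, and the replicate unit is the pup.

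A ribosome reads mRNA on its small subunit and joins amino acids on its large subunit. Each subunit is RNA dressed with single copies of many different proteins, so cells make these proteins in balanced amounts. The mRNAs begin with a run of pyrimidines (C or T), the terminal oligopyrimidine (TOP) tract, through which mTOR and Larp1 adjust their translation together. In the developing brain, ribosomal protein mRNAs are among the most abundant in neurons and are also carried into axons and dendrites.

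Many of the genes carry such a run near their annotated start, and the windows below are shown because the same members recur in the comparisons. Each window runs from 15 bases before the annotated start base to 14 bases after it, in RefSeq annotation of GRCr8, which need not be the build of the files. Of 79 member names, 60 matched by symbol, with 61 windows, and 19 names had none. A run of at least 8 C or T on the sense strand lay in 37 of 61 member windows (60.7%) and in 11.4% of all 33469 windows, whereas a run of at least 8 A or G lay in 1.64% and 13%. CTTTC was present on the sense strand in 34.4% of member windows and 3.59% of all windows, and its reverse complement GAAAG in 1.64% and 3.82%. CTTCC was present in 29.5% and 6.05%, and GGAAG in 4.92% and 6.73%. CTTTC and CTTCC can overlap each other and the run. The longest run had a median of 9 bases in member windows and 4 in all windows. A counted run can end before the annotated start, as in Rpl13a (bases -15 to -2) and Rps3 (-15 to -8), and then lies outside the annotated mRNA. Capitals mark the longest run of C or T in each window. Of the stalk proteins, Rplp2 had a longest run of 6 bases and is not shown. The first 7 windows hold a run of at least 8 and belong to members that were higher in F2 or sit on the ribosomal stalk.
Rpl19, chr10:83519049-83519078, plus strand: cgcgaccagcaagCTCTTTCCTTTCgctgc
Rps15, chr7:10068101-10068130, minus strand: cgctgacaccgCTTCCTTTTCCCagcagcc
Rps28, chr7:15311319-15311348, minus strand: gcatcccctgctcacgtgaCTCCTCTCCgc
Rpl10, chrX:157205835-157205864, plus strand: caggcgtgggagcgTCTCTTTTCCTCTggc
Rps23, chr2:23814502-23814531, plus strand: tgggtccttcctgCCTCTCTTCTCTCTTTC
Rps27, chr2:177964592-177964621, minus strand: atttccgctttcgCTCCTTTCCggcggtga
Rplp0, chr12:46718376-46718405, minus strand: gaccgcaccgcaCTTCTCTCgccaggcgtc
The next 5 windows hold no such run. Rpl36 and Rps12 were among the members with the smallest p in the generation comparisons, and Rpl7l1, Rps27l and Rpl22l1 are divergent relatives of other members.
Rpl36, chr9:1533765-1533794, plus strand: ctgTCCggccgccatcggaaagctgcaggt
Rps12, chr1:23500060-23500089, plus strand: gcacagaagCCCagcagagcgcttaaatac
Rpl7l1, chr9:21695703-21695732, plus strand: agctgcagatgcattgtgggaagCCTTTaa
Rps27l, chr8:76443643-76443672, plus strand: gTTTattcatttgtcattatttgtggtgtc
Rpl22l1, chr2:113683181-113683210, plus strand: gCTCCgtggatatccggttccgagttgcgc
Among names with 1 row in the files, the 35 with such a run had a median level of 317 FPKM and the 20 without it 194 FPKM. A window without the run says only that these letters are not near that annotated start.

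FPKM summed over all genes ranged from 535866 to 766781 per library, and the number of reads is unknown. F2 PNO replicate 1 and F2 IUO replicate 4 stood apart, with the highest sums (766781 and 709207) and the lowest upper quartiles over all genes (8.84 and 9.35 FPKM), so the main counts and medians are also given without them. All 10 markers of striatal projection neurons were present, with a summed level of 430 FPKM, in F2 IUO replicate 1, to 1398 FPKM. Markers of neighbouring tissue varied widely between libraries, from 6.06 FPKM to 12289 FPKM, again in F2 IUO replicate 1, for 8 choroid plexus genes and from 5.49 to 832 FPKM for 8 hypothalamus genes. In bulk tissue, fewer cells of a type and less RNA per cell cannot be told apart.

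The members were abundant. Their FPKM summed to between 19068 and 34144, which was 3.10% to 4.97% of all FPKM in a library. Of the 87 members, 70 had a mean above 100 FPKM, 5 had a mean under 10 FPKM, and the median was 224 FPKM. The highest levels were those of Rpl41 (1863 FPKM), which encodes a very short peptide of the large subunit, Rpsa (845 FPKM), also known as the laminin receptor, Rps15 (737 FPKM), Rpl35 (690 FPKM) and Rps27 (653 FPKM). These 5 members made up 19.5% of the members' summed FPKM. The lowest were Rpl21 (ENSRNOG00000049848; 1.57 FPKM), Rpl39l (1.58 FPKM), Rpl10l (1.62 FPKM), Rps4y2 (4.64 FPKM) and Rpl38 (6.42 FPKM). Just below the minimum were Rpl3l (0.514 FPKM), the striated muscle form of Rpl3, and Rpl30l1 (0.128 FPKM). Apart from Rpl10l and Rpl39l, 85 members were above 0 in every library.

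The spread over the 24 libraries, as the coefficient of variation (CV, the SD as a percentage of the mean), had a median of 19.4% and was under 20% for 47 members. It was 17.1% for 432 other genes of similar level. The steadiest members were Rpl9 (10.3%), Rps3a (12.1%) and Rpl4 (12.7%), core parts of both subunits. The least steady were Rpl39l (207%), Rpl21 (ENSRNOG00000049848; 141%), Rpl10l (74.0%), Rpl38 (51.2%) and Rps19 (ENSRNOG00000037897; 49.2%). Of these 5, all but Rps19 were among the 5 members of lowest level.

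**Figure D1:**
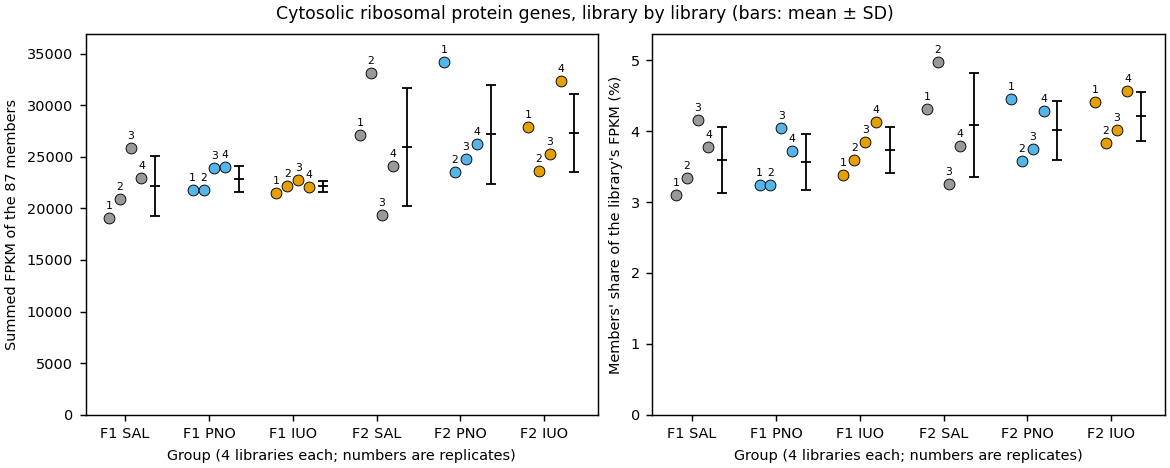
Summed FPKM of the 87 members in the first panel and their share of all FPKM in percent in the other, with 1 point per library, numbered by replicate, and bars for the mean ± SD of each group of 4. The 4 F1 IUO libraries lie between 21476 and 22737, while the F2 groups are more spread and have the higher means.

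Summed over the members, the F1 groups had means ± SD of 22197 ± 2920 FPKM in SAL, 22865 ± 1255 FPKM in PNO and 22125 ± 516 FPKM in IUO (n = 4 each). The F2 groups were higher and more spread, with 25941 ± 5736 FPKM in SAL, 27179 ± 4769 FPKM in PNO and 27315 ± 3802 FPKM in IUO (n = 4 each). The PNO mean was, without F2 PNO replicate 1, 24857 ± 1327 FPKM, and without F2 IUO replicate 4 the IUO mean was 25626 ± 2139 FPKM (n = 3 each). As a share of all FPKM, the F1 means were 3.59%, 3.56% and 3.73%, and the F2 means 4.08%, 4.01% and 4.21%, in the same order. Without these libraries the F2 PNO and F2 IUO shares were 3.87% and 4.09%. The shares of F1 and F2 libraries overlapped in all 3 exposures. The ranges of summed FPKM overlapped for SAL and PNO, and did not overlap for IUO, where the highest F1 library had 22737 FPKM and the lowest F2 library 23664 FPKM. The highest of the 6 group means was in F2 for 80 of 87 members, 36 in F2 PNO, 31 in F2 IUO and 13 in F2 SAL. The lowest was in F1 for 79 members, 29 in F1 IUO, 26 in F1 SAL and 24 in F1 PNO. These counts use FPKM that was not rescaled between libraries, and the same counts over all genes are not given here.

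Members were high or low together within a library. In F2 SAL replicate 2, 84 of 87 members were above their own median over the 24 libraries, in F2 PNO replicate 1 it was 76, in F2 IUO replicate 1 it was 73 and in F2 IUO replicate 4 it was 72. In F1 SAL replicate 1 only 7 members were above their median, in F2 SAL replicate 3 it was 10, in F1 IUO replicate 1 it was 14 and in F1 SAL replicate 2 it was 15. The library with the most and a library with nearly the fewest members above their median were thus both F2 SAL. The median ratio of a member to its own 24-library mean was 0.36 (log2) in F2 SAL replicate 2 and -0.32 in F2 SAL replicate 3. The share of all genes above their own median is not given here, and the part of library scale in these counts was not tested.

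**Figure D2:**
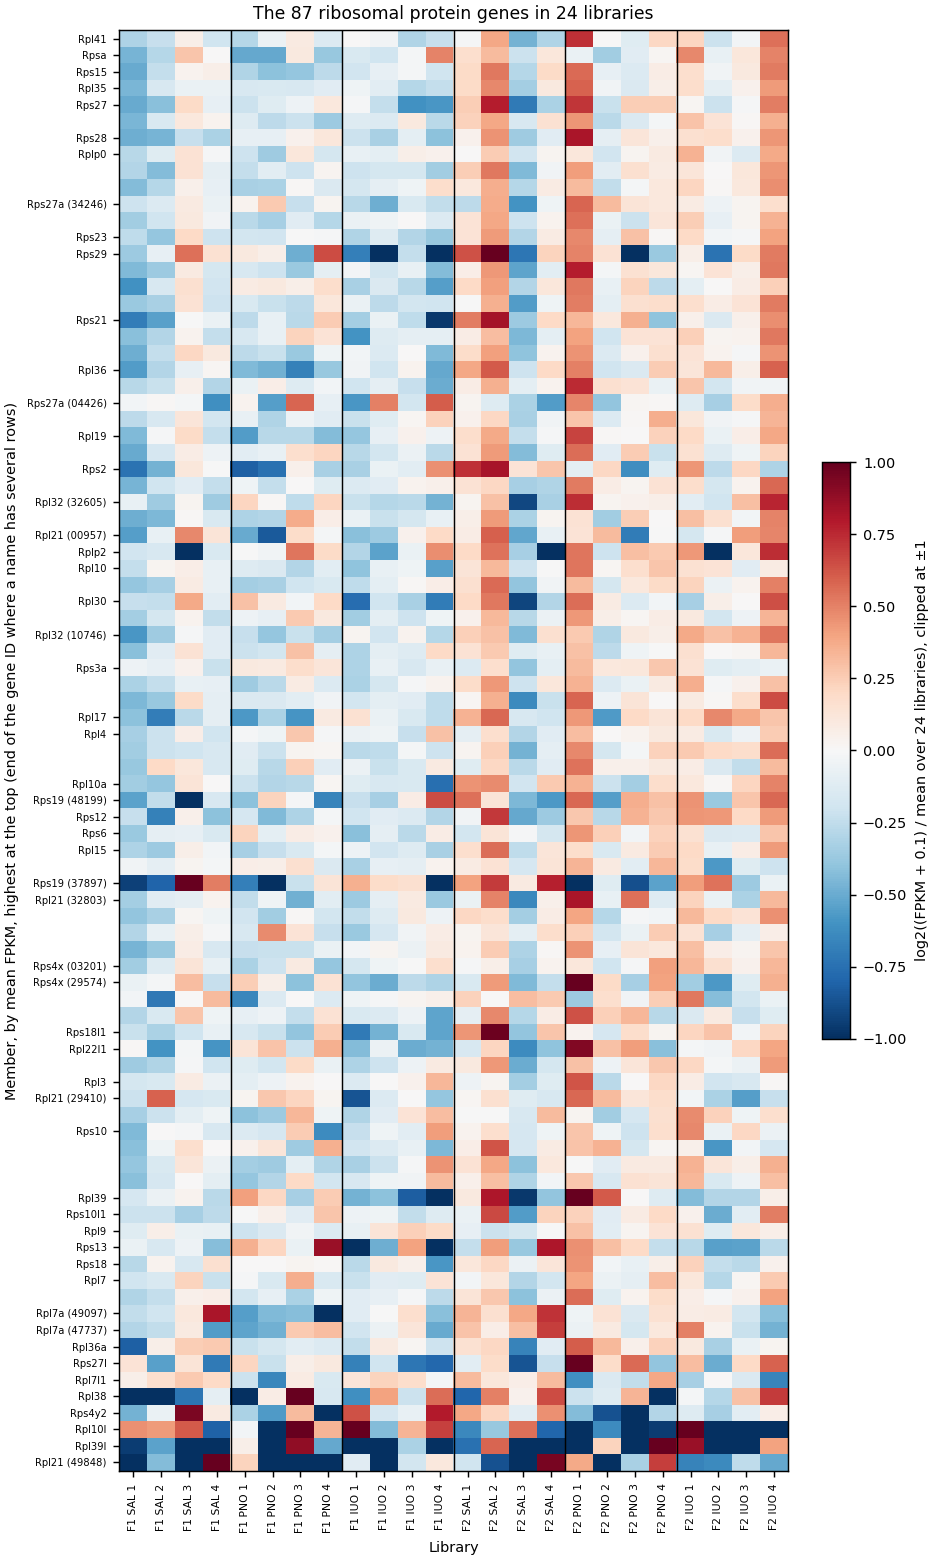
Each row is a member, ordered by mean FPKM, and each column a library, with color for the log2 ratio of FPKM + 0.1 to the member's mean over 24 libraries (red higher, blue lower, clipped at ±1), and members described in the text are labelled. Whole columns are red in F2 SAL replicate 2, F2 PNO replicate 1 and F2 IUO replicate 4 and blue in F1 SAL replicate 1 and F2 SAL replicate 3.

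To ask whether exposure moved these genes, each exposed group was compared with saline and with the other exposure in its generation. In each, limma's test was fitted to log2(FPKM + 0.1) over all genes with at least 0.1 FPKM in 4 or more of the 8 libraries, and p was adjusted by Benjamini-Hochberg over all of them. Differences are on that log2 scale. No member had an adjusted p under 0.05 in any of these 6 comparisons, so the counts below use the unadjusted p. Over all genes, 0.0809% were higher and 0.052% lower at an adjusted p under 0.05 in F1 IUO against F1 PNO, 0.00576% were higher in F2 PNO against F2 SAL, and 0 genes passed in the other 4. An unadjusted p under 0.05 with a 1.5-fold difference of the mean FPKM was reached by 2 members when F1 IUO was set against F1 SAL (2.45% of all genes), by 1 in F1 PNO against F1 SAL (4.48%) and by 5 between both exposed F1 groups (7.08%). In the same order it was reached in F2 by 1 member (4.19%), 3 members (4.54%) and 3 members (3.38%). With a 2-fold difference in place of 1.5-fold, the count was 0 members in the 3 F1 comparisons (1.61%, 1.86% and 2.95% of all genes for IUO against SAL, PNO against SAL and IUO against PNO), 0 in F2 IUO against F2 SAL (2.18%) and F2 IUO against F2 PNO (1.8%), and 1 in F2 PNO against F2 SAL (2.15%).

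Between F1 IUO and F1 SAL, 1 member was higher at an unadjusted limma p under 0.05, against 1.93% of 17380 genes, and 3 were lower, against 1.97%. The median difference of the members was 0.01, equal to that of all genes (0.01), and lay between -0.02 and 0.06 under other scalings. Rpl39, a small protein lining the tunnel through which the new peptide leaves, was at 86.6, 93.8, 100.1 and 80.6 FPKM in F1 SAL and at 70.3, 73.1, 55.1 and 36.8 FPKM in F1 IUO. The groups did not overlap, and all 4 IUO libraries were the lower ones. Its difference was -0.66 (SE 0.202), with an adjusted p of 0.999 by limma and an exact permutation p of 0.0286, the smallest that 4 against 4 libraries allow. Rps4x (ENSRNOG00000029574) was lower by -0.36 and Rpl30 by -0.45, and the named row of Rpl38 was higher by 0.84, each with an adjusted limma p of 0.999. The other row of Rps4x (ENSRNOG00000003201) averaged 129 FPKM in F1 SAL and 137 FPKM in F1 IUO. Reads that fit both rows could have been split between them, so the value of either row is uncertain. Groups did not overlap for 2 members, both lower, beside 1.37% of all genes lower and 1.17% higher. Leaving out single libraries gave 0 to 3 members higher and 2 to 6 lower, the 6 without F1 IUO replicate 3.

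Between F1 PNO and F1 SAL, 6 members were higher at an unadjusted p under 0.05 (6.11% of 17494 genes) and 2 were lower (7.83%), 5 of the 6 on the small subunit. Without F1 SAL replicate 4 the higher count was 2, without F1 PNO replicate 4 it was 3, and without F1 SAL replicate 3 it was 13, while the lower count was 7 without F1 SAL replicate 1. With upper-quartile or median-ratio rescaling 10 and 11 were higher, and with the same summed FPKM in every library 3. The shares of all genes under these omissions and rescalings are not given here. Groups did not overlap for 4 members with PNO higher (3.47% of all genes) and 1 with PNO lower (4.8%). Rps28, a small protein near the mRNA exit of the small subunit, was at 448, 457, 537 and 506 FPKM in F1 SAL and at 595, 594, 650 and 683 FPKM in F1 PNO. All PNO libraries were above all SAL libraries. The difference was 0.37 (SE 0.104, adjusted limma p 0.236). Rps10l1 was higher by 0.31 (adjusted limma p 0.249) and Rps13 by 0.52 (adjusted limma p 0.284). Rpl7a (ENSRNOG00000049097) was lower by -0.88 (adjusted limma p 0.284) and Rpl7l1 by -0.41 (adjusted limma p 0.292). The other row of Rpl7a (ENSRNOG00000047737) averaged 50.7 FPKM in F1 SAL and 57.2 FPKM in F1 PNO, so the rows went opposite ways. The members' median was 0.05 and that of all genes -0.05, and with the same summed FPKM the members' median was -0.01.

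Between F1 IUO and F1 PNO, 12 members were lower in IUO at an unadjusted p under 0.05 (6.41% of 17306 genes) and 4 were higher (10.1%). Without F1 PNO replicate 4 the lower count was 7, without F1 PNO replicate 3 the higher count was 11, and with the same summed FPKM in every library 6 were lower and 10 higher. Shares of all genes in these alternatives are not given here. The lower ones were 6 of 52 on the large subunit and 6 of 35 on the small subunit. Rpl30, which sits where the subunits meet, was at 368, 320, 295 and 344 FPKM in F1 PNO and at 177, 261, 240 and 185 FPKM in F1 IUO. No IUO library reached the lowest PNO library. The difference was -0.63 (SE 0.147, adjusted limma p 0.116), the smallest adjusted p of any member in this generation. Rps27l, a p53-regulated relative of Rps27, was lower by -0.64 (adjusted limma p 0.127) and Rpl39 by -0.91 (adjusted limma p 0.135). Rpl9 was higher in IUO by 0.26 (adjusted limma p 0.232) and Rpl7l1 by 0.36 (adjusted limma p 0.289). Groups did not overlap for 6 members with IUO lower (4.2% of all genes) and 3 with IUO higher (6.26%). The members' median was -0.02 and turned to 0.09 with the same summed FPKM, so no direction is given for the members as a group.

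Between F2 IUO and F2 SAL, 2 members were higher at an unadjusted p under 0.05 (3.52% of 17097 genes) and 3 were lower (4.97%). Without F2 SAL replicate 2 the higher count was 9, without F2 IUO replicate 1 the lower count was 8, and without F2 SAL replicate 3 the lower count was 7. Over all single omissions the higher count ranged from 0 to 9 and the lower count from 2 to 8. Rpl7l1, a nucleolar relative of Rpl7 that takes part in ribosome assembly, was at 20.7, 18.0, 17.4 and 20.8 FPKM in F2 SAL and at 13.2, 16.7, 15.1 and 10.5 FPKM in F2 IUO. The groups did not overlap, as for 2 members in all with IUO lower (2.74% of all genes) and 0 with IUO higher (2.37%). The difference was -0.49 (SE 0.155, adjusted limma p 0.538). Rps13 was lower by -0.56 (adjusted limma p 0.581) and Rpl7a (ENSRNOG00000049097) by -0.51 (adjusted limma p 0.484), while Rps4x (ENSRNOG00000003201) was higher by 0.28 (adjusted limma p 0.567). The other row of Rpl7a (ENSRNOG00000047737) differed by -0.37 (adjusted limma p 0.626). That of Rps4x (ENSRNOG00000029574) averaged 131 FPKM in F2 SAL and 125 FPKM in F2 IUO, opposite to the row named first. Rpl22l1 had a difference of 0.38 and missed 0.05 also without adjustment (limma p 0.0621). The members' median was 0.08 and that of all genes -0.08, and the members' median was 0.00 without F2 IUO replicate 4 and -0.04 without F2 SAL replicate 3.

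Between F2 PNO and F2 SAL, 2 members were higher at an unadjusted p under 0.05 (3.97% of 17367 genes) and 5 were lower (6.83%). Without F2 SAL replicate 2 the higher count was 10, and without F2 PNO replicate 3 or F2 SAL replicate 4 the lower count was 3. Over all single omissions the higher count ranged from 0 to 10 and the lower count from 3 to 6. Groups did not overlap for 3 members with PNO lower (4.36% of all genes) and 0 with PNO higher (2.65%). One row of Rps19 (ENSRNOG00000037897), a small-subunit protein known from Diamond-Blackfan anemia, was at 226, 277, 182 and 294 FPKM in F2 SAL and at 55.8, 157, 92.8 and 118 FPKM in F2 PNO. The groups did not overlap. The difference was -1.28 (SE 0.296, adjusted limma p 0.343), and the ratio of means was 0.433, which made it the 1 member with an unadjusted p under 0.05 and a 2-fold difference within a generation. The other row of Rps19 (ENSRNOG00000048199) was at 316, 235, 158 and 145 FPKM in F2 SAL and at 319, 147, 277 and 263 FPKM in F2 PNO. These groups overlapped. Summed over both rows, Rps19 was at 458 ± 89.99 FPKM in F2 SAL and 357 ± 36 FPKM in F2 PNO (SD, n = 4). Reads that fit both copies could have been split between them, so the value of either row is uncertain.

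Rps4y2, a relative of Rps4x, was at 6.08, 5.39, 4.31 and 6.39 FPKM in F2 SAL and at 3.40, 2.49, 2.19 and 3.77 FPKM in F2 PNO, without overlap. The difference was -0.90 (SE 0.231, adjusted limma p 0.355). Rps2, at the mRNA entry of the small subunit, was lower by -0.65 (adjusted limma p 0.386). Rpl21 (ENSRNOG00000029410) was higher by 0.32 and Rps3a by 0.32 (adjusted limma p 0.436 and 0.443). Of the other Rpl21 rows, ENSRNOG00000032803 differed by 0.33, ENSRNOG00000049848 by 0.54 and ENSRNOG00000000957 by -0.08 (adjusted limma p 0.672, 0.792 and 0.923). The members' median was 0.11 and that of all genes -0.08, and it was -0.01 without F2 PNO replicate 1 and -0.03 without F2 SAL replicate 3.

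Between F2 IUO and F2 PNO, 3 members were higher in IUO at an unadjusted p under 0.05 (4.59% of 17090 genes) and 4 were lower (2.48%). Rpl21 (ENSRNOG00000029410) was lower by -0.58 (adjusted limma p 0.431), Rps13 by -0.59 (adjusted limma p 0.463) and Rpl36a by -0.37 (adjusted limma p 0.670). Among the other Rpl21 rows, ENSRNOG00000032803 averaged 217 FPKM in F2 PNO and 179 FPKM in F2 IUO. In the same order, ENSRNOG00000000957 averaged 327 and 381 FPKM and ENSRNOG00000049848 1.6 and 1.1 FPKM, so the rows did not share a direction. The same row of Rps19 that was low in F2 PNO was higher in IUO by 0.92 (adjusted limma p 0.616), Rpl32 (ENSRNOG00000010746) by 0.36 and Rpsa by 0.38. Without F2 PNO replicate 3 the lower count was 7, and without F2 PNO replicate 1 or F2 PNO replicate 4 the higher count was 5. Other omissions gave 1 to 3 higher and 2 to 6 lower. Groups did not overlap for 1 member with IUO higher (2.96% of all genes) and 2 with IUO lower (1.78%). The members' median was -0.03 and turned to 0.03 with the same summed FPKM and to 0.09 without F2 PNO replicate 1.

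**Figure D3:**
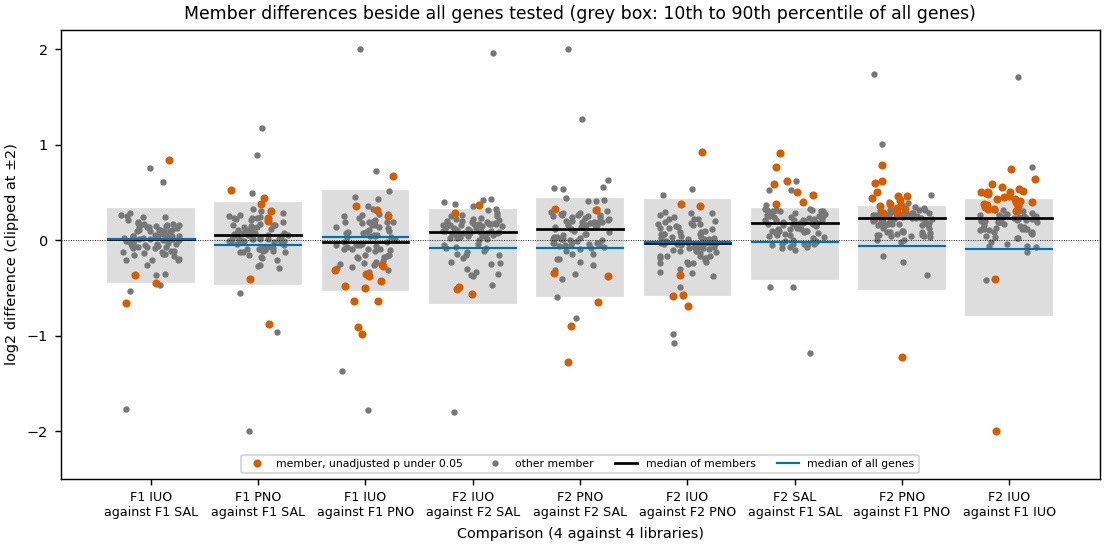
Log2 differences of the 87 members in the 9 comparisons of 4 against 4 libraries (points, orange where the unadjusted limma p was under 0.05), with the members' median (black line), the median of all genes (blue line) and the 10th to 90th percentile of all genes (grey boxes), clipped at ±2. In the 3 comparisons of F2 with F1 the members' medians are 0.18, 0.23 and 0.24, and in the other comparisons they lie between -0.03 and 0.11.

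The second comparison in the design is between generations, within each exposure. Here the members leaned to one side, most of them higher in F2, though again none had an adjusted p under 0.05. Of all genes, 0.00572% were higher and 0.0286% lower at that threshold in SAL, 0.00576% and 0.023% in PNO and 0 in IUO. Generation goes with the time at which the pups were born and collected, and these cannot be told apart. Between F2 SAL and F1 SAL, 8 members were higher at an unadjusted p under 0.05 (3.78% of 17497 genes) and 0 were lower (4.69%). Between F2 PNO and F1 PNO, 15 were higher (2.13% of 17370 genes) and 1 was lower (2.63%). Between F2 IUO and F1 IUO, 28 were higher (5.35% of 16916 genes) and 2 were lower (9.65%). Groups did not overlap, with F2 higher, for 1 member in SAL (1.82% of all genes), 8 in PNO (1.46%) and 21 in IUO (3.51%), and with F2 lower for 0 members (3.16%, 1.88% and 7.24% of all genes). An unadjusted p under 0.05 with a 1.5-fold difference of the means was reached by 4 members in each exposure (2.72%, 3.24% and 8.51% of all genes in SAL, PNO and IUO), among them Rps2, with a ratio of means of 1.69 in SAL, Rpl36, with 1.54 in PNO, and Rpl30, with 1.53 in IUO. With a 2-fold difference it was 0 members in SAL (1.45% of all genes), 1 in PNO (2.01%) and 1 in IUO (3.32%), Rpl10l in both. The members' median differences were 0.18, 0.23 and 0.24, beside -0.02, -0.06 and -0.09 for all genes. Above 0 were 71, 82 and 78 of the 87 members, or 81.6%, 94.3% and 89.7%, beside 47.0%, 41.3% and 41.4% of all genes.

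These counts depended on single libraries. In SAL, the count of 8 was 2 without F1 SAL replicate 1, F1 SAL replicate 2 or F2 SAL replicate 2, 3 without F2 SAL replicate 1 or 4, 12 without F1 SAL replicate 3 and 28 without F2 SAL replicate 3. In PNO, the count of 15 was 6 without F1 PNO replicate 2, 10 without F2 PNO replicate 1 and 26 without F2 PNO replicate 2. In IUO, the count of 28 was 18 without F2 IUO replicate 4, 22 without F2 IUO replicate 1 and at most 29 in the other omissions. The 1 lower member in PNO stayed lower without F1 PNO replicate 2 or F2 PNO replicate 2 and was lost in the other 6 omissions. The median without F2 SAL replicate 2 was 0.06, without F2 PNO replicate 1 it was 0.14 and without F2 IUO replicate 4 it was 0.19. With the same summed FPKM in every library the medians were 0.15, 0.17 and 0.12.

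The members with the smallest p between F2 IUO and F1 IUO are on both subunits. Rps12, a protein of the small subunit's beak, was at 175, 186, 182 and 164 FPKM in F1 IUO and at 272, 271, 230 and 270 FPKM in F2 IUO. All F2 libraries were higher, with replicate 3 lower than the other 3. The difference was 0.56 (SE 0.105, 95% interval 0.33 to 0.80, adjusted limma p 0.221). Rps18l1, a relative of Rps18 at the head of the small subunit, was at 77.4, 91.2, 114 and 87.7 FPKM in F1 IUO and at 147, 154, 124 and 147 FPKM in F2 IUO. These groups did not overlap either, and the difference was 0.64 (SE 0.136, adjusted limma p 0.221). Rpl32 (ENSRNOG00000010746) was higher by 0.49 (SE 0.118) with the same adjusted p. Rpl7l1 was lower in F2 by -0.41 (adjusted limma p 0.285) and Rpl10l by -2.54 (adjusted limma p 0.313). Rps4y2 differed by -0.42 and missed 0.05 also without adjustment (limma p 0.129).

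Between F2 PNO and F1 PNO, Rpl19, which bridges the subunits, was at 232, 281, 282 and 252 FPKM in F1 and at 546, 344, 342 and 400 FPKM in F2. All F2 libraries were higher, replicate 1 by far the highest. The difference was 0.62 (SE 0.163, adjusted limma p 0.824), and 0.47 without F2 PNO replicate 1 (adjusted limma p 0.726). An unnamed row described as the same protein, given below, was lower in F2 PNO than in F1 PNO. Reads that fit both rows could have been split between them, so the size of this difference is uncertain. Rpl36a was higher by 0.46 and Rpl36 by 0.60, with adjusted limma p of 0.838 and 0.841. Rpl10l was lower by -1.23 (adjusted limma p 0.948). Rps29 and Rps13 had differences of -0.36 and -0.16 and missed 0.05 also without adjustment.

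Between F2 SAL and F1 SAL, Rps2 was at 203, 244, 367 and 338 FPKM in F1 and at 563, 600, 373 and 412 FPKM in F2. It was the only member without overlap in this comparison. The difference was 0.77 (SE 0.223, adjusted limma p 0.569). Rpl7a (ENSRNOG00000047737) was higher by 0.59 (adjusted limma p 0.569) and Rpl17, near the tunnel exit, by 0.51 (adjusted limma p 0.585). The largest negative difference was that of Rplp2, -1.18 with an SE of 1.70, which rests on single low libraries described below.

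Over the 3 exposures, 64 of 87 members (73.6%) were above 0 in all 3 generation comparisons, beside 15.2% of the 16524 genes tested in all 3. Rpl36, a large-subunit protein, was the only member higher at an unadjusted p under 0.05 in all 3. Its F1 values were 272, 327, 378 and 406 FPKM in SAL, 294, 287, 250 and 307 FPKM in PNO and 391, 348, 410 and 280 FPKM in IUO. Its F2 values were 523, 612, 347 and 459 FPKM in SAL, 567, 349, 362 and 476 FPKM in PNO and 434, 500, 416 and 604 FPKM in IUO. The generations overlapped in SAL through F2 replicate 3 and did not overlap in PNO or IUO. Another 9 members passed in 2 of the 3, among them Rpl32 (ENSRNOG00000010746), Rpl10a, Rpl17, Rps12, Rpl15, Rps21, Rpl10 and Rps28. The share of all genes that passed in 2 or in all 3 is not given here, so these counts have no background beside them.

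A single fit of F2 against F1 over all 24 libraries, with the exposure as a term, was added after these results were seen. In it 45 of 87 members were higher in F2 at an unadjusted p under 0.05 (6.51% of 19134 genes) and 1 was lower (11.9%), and 0 had an adjusted p under 0.05. The median difference was 0.24, beside -0.06 for all genes, and 81 members were above 0. Both subunits had a median of 0.24, with 26 of 52 members of the large subunit and 19 of 35 of the small subunit higher. The smallest p was that of Rpl36 (0.51, SE 0.103, p 4.84e-05, adjusted limma p 0.143), followed by Rpl32 (ENSRNOG00000010746; 0.38), Rpl17 (0.44), Rps18l1 (0.44), Rpl15 (0.30), Rps15 (0.36), Rps28 (0.36), Rpl10 (0.29) and Rpl19 (0.36), all with the same adjusted p. The member lower in F2 was Rpl10l (-1.42, SE 0.483, adjusted limma p 0.174). Without F2 PNO replicate 1 and F2 IUO replicate 4, 31 members were higher (5.61% of all genes) and the median was 0.17. With the same summed FPKM in every library 26 were higher (2.77%), with a median of 0.17, and with upper-quartile rescaling 52 were higher (8.97%), with a median of 0.27. At an adjusted limma p under 0.05 were 3 members without F2 SAL replicate 3 (Rpl32, Rpl36 and Rps18l1). Without F2 PNO replicate 2 there were also 3 (Rpl17, Rpl32 and Rpl36), and the adjusted p were 0.0378 to 0.0479. Rpl32 is here the row ENSRNOG00000010746. The other row of Rpl32 (ENSRNOG00000032605) differed by 0.21 in the fit over all 24 libraries (adjusted limma p 0.392). Among names with 1 row, the median was 0.26 for the 35 with a pyrimidine run near the annotated start, 23 of them higher, and 0.19 for the 20 without it, 7 of them higher.

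Whether an exposure differed between generations in its difference from saline or from the other exposure was tested as an interaction. For IUO against SAL, 0 members were higher and 2 lower at an unadjusted limma p under 0.05 (1.62% and 3.53% of genes), Rpl7l1 (-0.44) and Rps2 (-0.74). For PNO against SAL 1 was higher, Rpl9 (0.29), and 0 were lower (1.61% and 2.45%). For IUO against PNO, Rps18l1 (0.49) and Rpl30 (0.61) were higher and Rpl7a (ENSRNOG00000049097; -0.81) and Rpl36a (-0.44) lower (3.04% and 2.72%). The other row of Rpl7a (ENSRNOG00000047737) was at 0.02 (adjusted limma p 0.996). Without F2 IUO replicate 4, 0 members passed in either direction for IUO against SAL, and 1 was higher and 2 lower for IUO against PNO. With F2 PNO replicate 1 left out, 0 passed for PNO against SAL, and 6 were higher and 2 lower for IUO against PNO. The smallest adjusted limma p among the 7 was 0.833. The members' medians were 0.06, 0.07 and 0.01.

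The roles of single members can be read alongside these comparisons. The stalk, which recruits the translation factors that hydrolyse GTP, is built on Rplp0, at 598 FPKM in F1 and 660 FPKM in F2 on average, a difference of 0.14 (adjusted limma p 0.335). Its partner Rplp2 averaged 309 FPKM in F1 and 349 FPKM in F2, and no row is named Rplp1. The row described as acidic protein P1 (LOC100360522) averaged 927 FPKM, with a CV of 20.8%. Rps6, the substrate of S6 kinase downstream of mTOR, averaged 177 FPKM in F1 and 199 FPKM in F2, a difference of 0.16 (adjusted limma p 0.228), and was higher in F2 PNO than in F2 SAL by 0.28 with a limma p of 0.0539. Rpsa had a difference of 0.21 between generations (adjusted limma p 0.281). Rps27a, made as a fusion with ubiquitin, has a pair of rows, of which ENSRNOG00000034246 had a difference of 0.19 (adjusted limma p 0.296) and ENSRNOG00000004426 of -0.04 (adjusted limma p 0.920).

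Relatives with a name ending in l were mostly lower in level than their parents. Rpl3 averaged 116 FPKM in F1 and 118 FPKM in F2, while Rpl3l was below the minimum. Rpl7 averaged 62.8 and 66.3 FPKM and Rpl7l1 17.1 and 16.1 FPKM. Rps27 averaged 572 and 734 FPKM and Rps27l 18.4 and 24.5 FPKM, with generation differences of 0.32 and 0.36 (adjusted limma p 0.238 and 0.264). Rpl22l1 averaged 111 and 133 FPKM, and the row described as Rpl22 (LOC100360057) 205 FPKM over all libraries.

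Rps27l was at 13.4, 18.7, 12.98 and 12.4 FPKM in F1 IUO and at 48.3, 24.4, 31.8 and 16.3 FPKM in F2 PNO. Rpl22l1, a relative of Rpl22 that can replace it in the ribosome, was at 90.1, 117, 86.4 and 88.1 FPKM in F1 IUO and at 232, 150, 163 and 91.1 FPKM in F2 PNO. For both, F2 PNO replicate 1 was the highest of the 24 libraries. Rpl10l, an autosomal relative of the X-linked Rpl10 best known from the testis, was at 2.25, 2.21, 2.52 and 0.88 FPKM in F1 SAL, 1.58, 0.66, 3.97 and 2.07 FPKM in F1 PNO and 3.62, 1.17, 2.07 and 2.66 FPKM in F1 IUO. In F2 it was at 1.0, 1.22, 2.41 and 0.89 FPKM in SAL, 0.36, 1.01, 0.73 and 0.79 FPKM in PNO, and 4.25 FPKM in IUO replicate 1 with 0, 0.47 and 0 FPKM listed in the other 3. Its highest library was thus also in F2. Rpl10 itself averaged 286 FPKM in F1 and 349 FPKM in F2, and the reads of such similar genes could have been split. Rps18l1 averaged 107 FPKM in F1 and 146 FPKM in F2, above Rps18 at 68.8 and 74.7 FPKM, and Rps10l1 averaged 88.5 and 101 FPKM beside Rps10 at 102 and 114 FPKM.

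**Figure D4:**
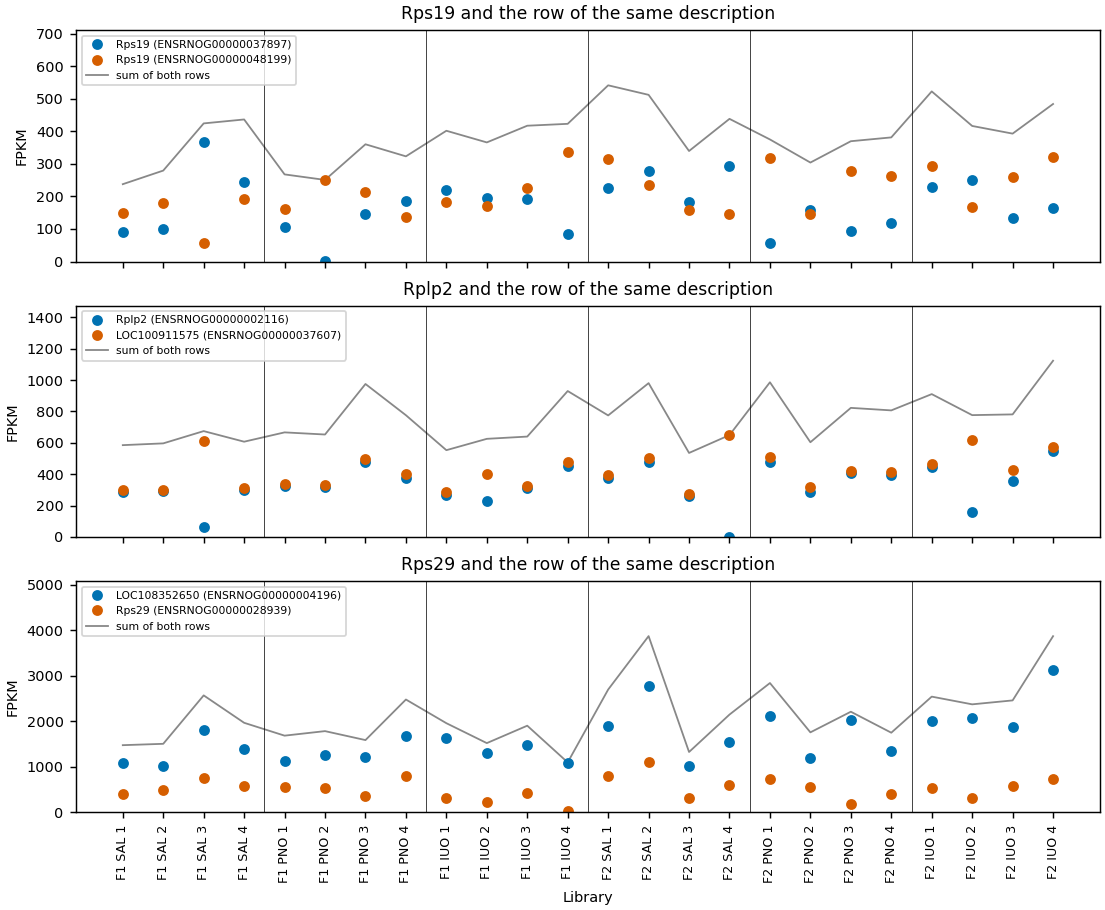
FPKM of Rps19, Rplp2 and Rps29 (points, 1 color per row of the file) and of the sum of the rows that share a description (grey line), by library. For Rps19 and Rplp2 a low value in one row falls where the other is high, and the sum has a CV of 21.5% and 21.6%.

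Several names had more than 1 row or an unnamed row with the same description. In all, 6 names covered 14 rows, 4 of them Rpl21. A difference given for 1 row of such a name holds for that row only. The 2 rows of Rps19 had CVs of 49.2% and 33.8% and their sum 21.5%. In F1 SAL replicate 3 one was at 367 FPKM and the other at 57.6 FPKM, and in F1 PNO replicate 2 the first was at 0.16 FPKM and the other at 251 FPKM. Rplp2 had a CV of 39.6%, with 62.9 FPKM in F1 SAL replicate 3 and 1.17 FPKM in F2 SAL replicate 4, where the unnamed row of the same description (LOC100911575) was at 612 and 648 FPKM, its highest values but for 617 FPKM in F2 IUO replicate 2, where Rplp2 was at 160 FPKM. The sum of both rows had a CV of 21.6%. Rps27a rows had CVs of 26.1% and 18.8% and their sum 15.2%, while summing the 2 rows of Rps4x (15.2% and 30.1%, sum 18.0%) or of Rps29 and LOC108352650 (46.3% and 33.5%, sum 33.0%) did not lower the spread below the steadier row by more than 1 percentage point. The named row of Rpl38 averaged 6.42 FPKM, and the pair of rows named LOC682793 with its description 443 and 252 FPKM, so the differences of the named row are those of a minor copy.

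Rows without a ribosomal protein name were counted from a list by annotation. Of 509 such rows 360 were tested in the fit over all libraries, and 73 were higher in F2 and 11 lower at an unadjusted p under 0.05, with a median of 0.20, beside 6.51% of all genes higher and 11.9% lower. Of 141 of them described as a ribosomal protein with a mean of at least 0.5 FPKM, a restriction chosen after the annotation was seen, 46 were higher and 2 lower, with a median of 0.27. When F2 PNO replicate 1 and F2 IUO replicate 4 were left out, 59 of 350 were higher and 8 lower, and 34 of the 141 were higher and 1 lower. Without these libraries, 5.61% of all genes were higher and 6.43% lower. The row with the smallest p was lower in F2. RGD1562420 (ENSRNOG00000005826), described as ribosomal protein L19, was at 104, 57.5, 69.9 and 57.4 FPKM in F1 SAL, 133, 52.5, 124 and 131 FPKM in F1 PNO and 13.7, 3.52, 1.59 and 43.3 FPKM in F1 IUO. In F2 it was at 3.48, 2.63, 51.7 and 60.2 FPKM in SAL, and no library exceeded 1.85 FPKM in PNO or 2.37 FPKM in IUO. Its values fell into a high and a low set that cut across F1 IUO and F2 SAL, with a generation difference of -3.66 (SE 0.625, adjusted limma p 0.061). Rpl19 itself was higher in F2 by 0.36. Reads that fit both rows could have been split between them, so the value of either row is uncertain.

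Genes with related functions were examined in the same fit of F2 against F1, from lists chosen by role. Ribosomal proteins that the name rule misses also lay above 0 in 5 of 5 rows, with 3 higher at an unadjusted p under 0.05. Mitochondrial ribosomal proteins, which serve the separate ribosome of mitochondria, had a median of 0.15, with 32 of 75 higher and 1 lower. Nuclear-encoded respiratory chain genes had a median of 0.18, with 42 of 84 higher and 0 lower, among them Atp5mc2 (0.37), Uqcrq (0.57) and Cox8a (0.40), each with an adjusted limma p of 0.143. The 13 mitochondrially encoded genes had a median of 0.08 and 0 passed. The percentages of all genes are those given for this fit, 6.51% higher and 11.9% lower. Without F2 PNO replicate 1 and F2 IUO replicate 4, 19 of 75 mitochondrial ribosomal proteins and 24 of 84 respiratory chain genes were higher and 0 of either lower, with medians of 0.11 and 0.11, beside 5.61% of all genes higher and 6.43% lower.

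Genes for ribosome assembly and for control of ribosomal protein synthesis had more lower than higher in F2, and translation factors more higher than lower. Over all genes in this fit, 6.51% were higher and 11.9% lower, with a median of -0.06. Of 20 ribosome assembly genes, 1 was higher (Nop10, 0.16) and 4 lower, among them nucleolin Ncl (-0.17) and the ribosomal DNA transcription factor Ubtf (-0.27), with a median of -0.02. Of 13 genes that control ribosomal protein synthesis, 1 was higher, Akt1s1 (0.22), an inhibitor of mTOR, and 3 were lower, Mtor (-0.19), the S6 kinase Rps6kb1 (-0.21) and the TOP-binding Larp1 (-0.20), with a median of -0.15. Of 16 translation factors with a TOP tract, 4 were higher and 1 lower, with a median of 0.06. Eif3k (0.29), Eif3l (0.20) and Eif3h (0.17) were higher and Nap1l1 (-0.27) lower. Among snoRNA hosts, Snhg11 was the 1 gene found, at -0.25 (adjusted limma p 0.274). No gene of these lists had an adjusted p under 0.05 in this fit. In the fit over 22 libraries, without F2 PNO replicate 1 and F2 IUO replicate 4, 0 assembly genes were higher and 2 lower, 1 of the control genes was higher and 0 lower, with a median of -0.08, and 2 translation factors were higher and 1 lower. All genes in the fit over 22 libraries were higher in 5.61% and lower in 6.43%. A difference between the lists was not tested.

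Within generations, the mitochondrial lists had their highest counts among the F1 pups. In the comparison of IUO with PNO, 20 of 75 mitochondrial ribosomal proteins and 19 of 83 respiratory chain genes were lower in IUO and 0 higher, beside 6.41% of all genes lower and 10.1% higher. In that of PNO with SAL, 20 of 75 and 23 of 83 were higher and 1 and 0 lower, beside 6.11% of all genes higher and 7.83% lower. The counts of the cytosolic members are given above, and the difference between the lists was not tested.

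**Figure D5:**
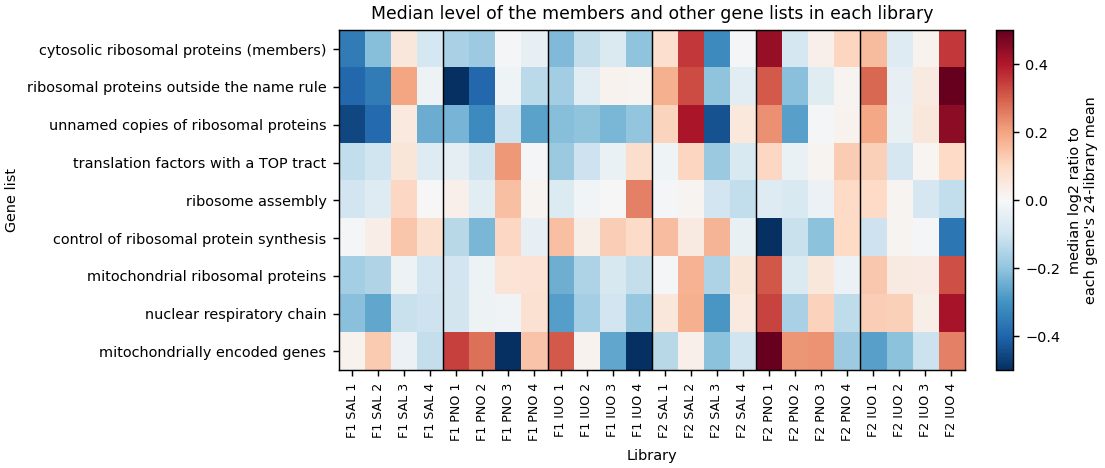
Median log2 ratio of each gene list to the 24-library means of its genes, by library, for the members and 8 other lists (red higher, blue lower, clipped at ±0.5). In F2 PNO replicate 1, F2 SAL replicate 2 and F2 IUO replicate 4 the members stand at 0.43, 0.36 and 0.35 and respiratory chain genes at 0.34, 0.18 and 0.41, while ribosome assembly genes stand at -0.06, 0.01 and -0.12.

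The other lists stood on the same side as the members in some libraries and not in others. In F2 IUO replicate 4, where the members' median ratio was 0.35, mitochondrial ribosomal proteins stood at 0.32 and respiratory chain genes at 0.41. In F1 SAL replicate 1, where the members stood at -0.35, these lists stood at -0.17 and -0.21. In F2 PNO replicate 4, where the members stood at 0.11, they stood at -0.03 and -0.13. Genes that control ribosomal protein synthesis stood at -0.61 in F2 PNO replicate 1 and -0.36 in F2 IUO replicate 4. Marker levels differed between libraries and, for some lists, between generations. Beside the counts below, 6.51% of all genes were higher and 11.9% lower in F2 at an unadjusted p under 0.05. Of 10 striatal projection neuron markers, 2 were lower in F2 at an unadjusted p under 0.05 and 0 higher, with a median difference of -0.12 and a median summed level of 883 FPKM in F1 and 859 FPKM in F2. The hypothalamus markers had a median summed level of 18.3 FPKM in F1 and 57.3 FPKM in F2, with 0 of 8 past that threshold and a median difference of 0.48. The 7 thalamus and 8 choroid plexus markers had median differences of -0.41 and -0.57, with 0 past it. The summed level of 5 endothelial and mural cell markers found, of 6 listed, ranged from 25 FPKM, in F2 IUO replicate 4, to 57.9 FPKM, with 3 of 4 tested genes lower in F2 at an unadjusted p under 0.05. Oligodendrocyte markers ranged from 825 FPKM to 3626 FPKM, the highest in F2 PNO replicate 1, and the 2 markers of their precursors together ranged from 13.4 FPKM, in F2 PNO replicate 1, to 34.1 FPKM, in F1 IUO replicate 4. None of the markers in these lists was at 0 in all libraries. The part of cell makeup, and of the scale of each library, in the members' differences was not tested.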

How the data were processed

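The authors sequenced total RNA of 24 NAc samples (standard Illumina libraries) and deposited FPKM values per gene, rounded to 2 decimals. The submitters' processing notes name HISAT2, SAMtools, StringTie and edgeR, and the study's methods say that the transcriptomes of all samples were merged. The genome build is not given in the sources used here. The files hold no counts, so depth is unknown, no counting error is given, and a 0 is described as listed at 0. Values were not rescaled between libraries, so a few very abundant transcripts can move all others in a library.

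The test was that of limma 3.58.1 (R 4.3.3, eBayes with a mean trend), on log2(FPKM + 0.1), for genes with at least 0.1 FPKM in 4 or more libraries compared. The pseudocount shrinks the log2 ratios of low genes, and where values are listed at 0 the difference depends on its size. For Rpl10l in F2 IUO against F1 IUO the difference was -2.54, while the ratio of mean FPKM was 0.496. Adjusted p are Benjamini-Hochberg values over all genes tested. Tests are two-sided. Exact permutation p are over 70 splits of 4 against 4, with a minimum of 0.0286. The study's methods took genes with a 1.5-fold difference and p under 0.05. Counts with an unadjusted limma p under 0.05 are given at that fold, added after seeing the data, and at a 2-fold limit that is not the study's. Groups came from the labels. The litter of each pup is not given, so p-values measure only the spread between these samples. The procedure was tested on simulated data. Tables used Python 3.11.15, pandas 2.3.3, numpy 2.4.6, scipy 1.17.1 and matplotlib 3.10.9.

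The members, lists and named genes were chosen with earlier results of these data known. Named were fixed roles, the 5 highest and 5 lowest members, the 5 most and 3 least variable, the rows beside the minimum of 1 FPKM, and per comparison the 3 members with the smallest p in each direction. Alternatives were a pseudocount of 1, filters of 1 FPKM or none, 3 rescalings, 1 fit of all 24 libraries, a replicate block, leaving out each library, and, added after seeing the data, F2 against F1 over 24 and 22 libraries, for the members and the other lists. Same-numbered libraries were checked for shared deviations over 10945 genes. In 36 pairs over 9 comparisons the correlation ranged from -0.401 to 0.295, in 0 comparisons were all pairs above 0.1, and no libraries were identical, so the numbers did not pair the pups. Deposited columns other than FPKM were left out. Results for a few named genes are not reported here.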

Additional observations from a re-analysis of the deposited data

Results flagged for a closer look

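Of 216 groups of 4 examined (the named members and their summed FPKM), 10 held a library far from the other 3, which is 4.63%. Chance gives about 1 in 20 such groups. In each, the gap to the nearest of the others passed Dixon's 95% limit for the share of the group's range.

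Rplp2, a stalk protein, was at 62.89 FPKM in F1 SAL replicate 3 and at 288 to 297 FPKM in the other 3. Rpl7a (ENSRNOG00000049097) was at 19.5 FPKM in F1 PNO replicate 4 and at 41.2 to 45.0 FPKM in the others. Rpl21 (ENSRNOG00000049848) was at 11.35 FPKM in F1 SAL replicate 4 against 0.36 to 1.13 FPKM. Rpl39l was at 16.26 FPKM in F2 PNO replicate 4 against 0.15 to 1.86 FPKM. Rpl10l was at 4.25 FPKM in F2 IUO replicate 1 against 0 to 0.47 FPKM.

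Rps12 was low in F2 PNO replicate 2 (165.13 FPKM against 241 to 255 FPKM) and in F2 IUO replicate 3 (230.35 FPKM against 270 to 272 FPKM). Rpl21 (ENSRNOG00000029410) was at 176.02 FPKM in F1 SAL replicate 2 and at 100 to 105 FPKM in the others. In F1 IUO replicate 2, Rpl22l1 was at 116.89 FPKM against 86.4 to 90.1 FPKM, and Rps27l at 18.65 FPKM against 12.4 to 13.4 FPKM. The causes were not tested.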

How the results depend on the processing

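Only the 43 named pairs of member and comparison with an unadjusted limma p under 0.05 were followed. They kept their sign in all 688 values under alternatives, and 0 gained an adjusted p under 0.05. Pairs picked for a small p and fitted again on mostly the same libraries would seldom change sign, so this does not show that they are stable. Of 245 adjusted counts under alternatives 2 were above 0, both in the fit of F2 against F1 over 3 exposures, which ranged from 0 to 3 when single libraries were left out. The 245 medians moved by less than 0.184, the SD of the library-level median within groups, although the near-zero medians within generations changed sign. That limit is about as large as the median of F2 SAL against F1 SAL (0.18), which ranged from 0.06 to 0.29 when single libraries were left out. Staying within it therefore does not show that a median is stable. With the same summed FPKM in every library, the count lower in F1 IUO than F1 PNO went from 12 to 6, that higher in F2 PNO than F1 PNO from 15 to 8, in F2 IUO than F1 IUO from 28 to 14, and over 3 exposures from 45 to 26. Over 3 exposures the share of all genes higher fell as well, from 6.51% to 2.77%. For the other counts, the share of all genes under this rescaling or with a single library left out is not given here. The same rescaling moved the mean summed FPKM of the members, F1 IUO, from 22125 to 23708, upper-quartile rescaling to 21458 and median-ratio rescaling to 21477. The median of all genes over 3 exposures was -0.06, and -0.12 with the same summed FPKM.

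Leaving out single libraries gave 7 to 15 members lower in F1 IUO than F1 PNO, 2 to 28 higher in F2 SAL than F1 SAL, 6 to 26 in F2 PNO than F1 PNO, 18 to 29 in F2 IUO than F1 IUO and 37 to 55 over 3 exposures. Without F2 PNO replicate 1 and F2 IUO replicate 4 the last was 31. With the replicate number as a block, although the numbers do not pair the pups, the count in F2 SAL against F1 SAL was 3 in place of 8, and no adjusted count was above 0. Depth is unknown, so the precision of low members such as Rpl10l and Rpl39l cannot be given.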
